A study of Mus musculus with 2 samples.

Results

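The 10 genes described here are the serum amyloid genes Saa1, Saa2, Saa3 and Saa4 and 6 other acute-phase genes, Hp, Lcn2, Orm1, Orm2, Ptx3 and Apcs, among 18193 genes with a probe set of their own on the array. Members were taken by gene symbol, from probe sets that the platform annotation gives to that symbol alone, and all 10 had at least 1, with 13 probe sets in all. Saa3, Hp, Lcn2 and Ptx3 were classed as made in fat and macrophages, and the other 6 as liver-type. The class names do not mean that a gene is made nowhere else. The study set adipose tissue of C57BL/6 mice (a common inbred strain) on a high fat diet, HFD32, meant to induce obesity, against that of mice on a normal diet, CE-2, both fed from 6 to 18 weeks of age. RNA of 3 animals was pooled for each diet and measured on 1 Affymetrix array, called the HFD32 array and the CE-2 array below, so there was no replicate, and no test between the diets was possible. The sources used here give neither the fat depot nor the sex. The tissue label was checked against adipocyte markers, and adiponectin, Adipoq, had a log2 signal of 14.12 on the HFD32 array and 14.21 on the CE-2 array, near the top of the scale. Markers of other tissues gave signal too, and unequally. Alb, a liver gene, had 7.91 on the HFD32 array and 13.15 on the CE-2 array. Gpx5, an epididymis gene, had 9.62 on the HFD32 array and 5.59 on the CE-2 array.

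Acute-phase proteins are plasma proteins whose level moves when tissue is injured or inflamed. Interleukin 6, interleukin 1 and tumour necrosis factor induce them through STAT3, C/EBP and NF-kB factors, in hepatocytes and, for some, in fat cells and macrophages as well. In the mouse, Saa1 and Saa2 are largely products of the liver, whereas Saa3 is made mainly outside it, in adipose tissue and macrophages among other places.

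On the high fat diet array Saa3 was 14.5-fold, Ptx3 3.52-fold and Orm2 2.45-fold higher, Orm1 was 1.45-fold and Hp 1.26-fold higher, and Lcn2 was 1.13-fold lower. Saa1 and Saa2 lay under background on both arrays, and Saa4 and Apcs lay under it on the HFD32 array and under or just above it on the CE-2 array. At 2-fold, 3 of the 10 members were higher and 0 were lower, against 2.63% of 18193 genes that were at least 2-fold higher and 3.06% that were at least 2-fold lower. These shares cover all levels and understate how common such differences were among genes as dim as Ptx3 and Orm2. Of genes above the floor defined below and within 0.5 of Ptx3 in mean level, 218 of 2161 were past 2-fold in either direction. Near Orm2 these were 216 of 2149, and near the brighter Saa3 90 of 2090. With the median over each gene's probe sets Ptx3 had a difference of 0.64 and 2 members were past 2-fold. By any amount 5 members were higher and 5 lower, against 53.0% and 44.5% of genes, but 7 were higher and 3 lower when each array was centred on its median (Saa2 at 0.06, Saa4 at 0.02), and 8 were higher and 2 lower with signals under background raised to it. Of the 5 lower members only Lcn2 was above background on both arrays. The members were chosen with results of these data known, so these counts describe the members and are not independent evidence of a direction.

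Values are log2 signals, and a difference is HFD32 minus CE-2, so that 1 is a 2-fold ratio. Background is the 95th percentile of 83 probe sets of sensory receptor genes, 4.95 on the HFD32 array and 4.92 on the CE-2 array. A gene is represented by its brightest probe set and lies above the floor when the mean of its 2 log2 signals is at or above 5.44, the median of all probe sets other than controls. Of the members 6 lay above the floor, which are all 4 made in fat and macrophages and, of the liver-type ones, Orm1 and Orm2. The only error that can be had is the one within arrays, an SD of 0.27 on the log2 scale between differences of probe sets of the same gene.

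**Figure D1:**
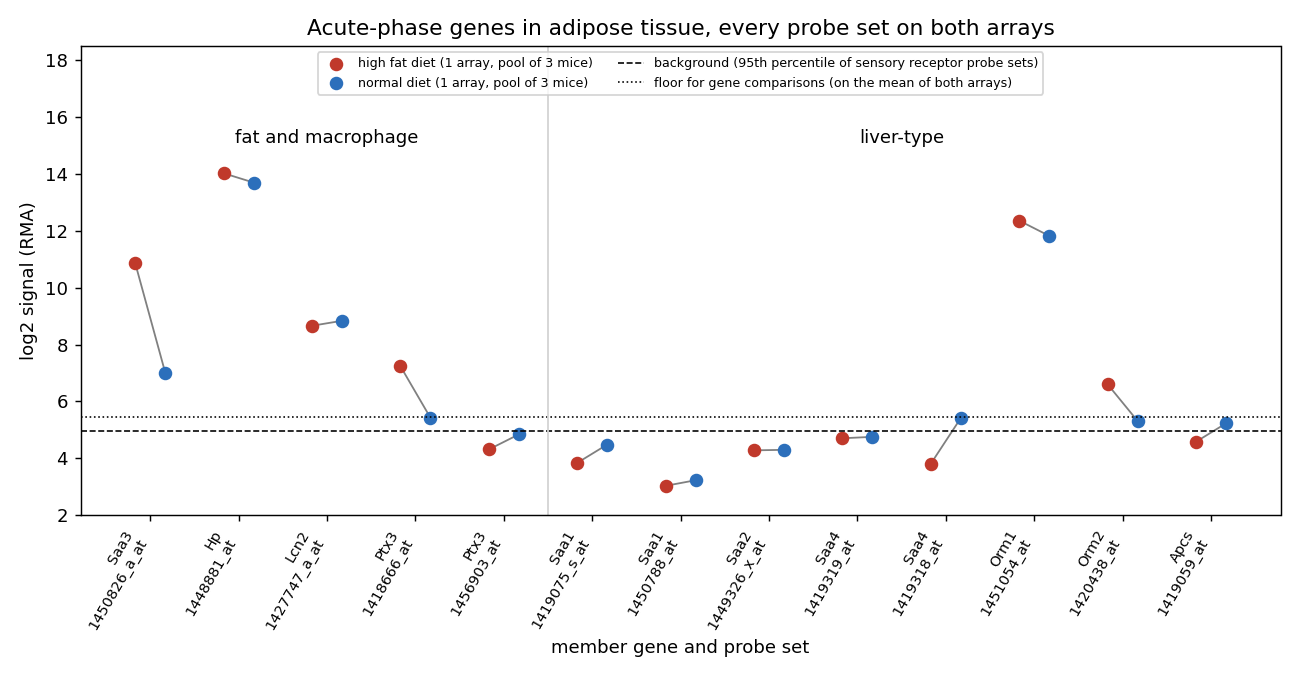
Log2 signal (vertical axis) of each of the 13 member probe sets (horizontal axis), with the HFD32 array (high fat diet) in red and the CE-2 array (normal diet) in blue, 1 array of 3 pooled mice each and hence no error bars. The dashed line is background on the HFD32 array (4.95) and the dotted line the floor (5.44). Saa3 has the widest gap of these probe sets, and 5 probe sets of Ptx3, Saa1, Saa2 and Saa4 lie under background on both arrays.

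Saa3 encodes an apolipoprotein that associates with high-density lipoprotein and is released from inflamed tissue. Its single probe set, 1450826_a_at, had a log2 signal of 10.87 on the HFD32 array and 7.01 on the CE-2 array, a difference of 3.85. That is rank 12 from the top among 11778 genes above the floor, whose quartiles of difference were -0.23 and 0.23. Among the 2090 genes with a mean level within 0.5 of its own it had rank 3. The suffix of this probe set marks it as able to match several transcripts of a gene, and Saa3 has no second probe set to set beside it.

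The other serum amyloid genes stood apart from Saa3 in signal. Saa1 has 2 probe sets, with log2 signals of 3.84 on the HFD32 array and 4.48 on the CE-2 array for 1419075_s_at, and of 3.03 on the HFD32 array and 3.23 on the CE-2 array for 1450788_at. The annotation gives 1419075_s_at to Saa1, but the transcript it cites is that of Saa2 in the RefSeq table, the same one cited for the Saa2 probe set, so that Saa1 and Saa2 cannot be told apart by it. Saa2 itself (1449326_x_at) had 4.28 on the HFD32 array and 4.30 on the CE-2 array. All 3 probe sets were under background on both arrays, so no fold is given for either gene. Saa4, a constitutive component of high-density lipoprotein rather than an inducible one, had 4.70 on the HFD32 array and 4.75 on the CE-2 array on 1419319_at, also under background. Its other probe set, 1419318_at, had 3.80 on the HFD32 array against 5.41 on the CE-2 array. That probe set was thus at least 1.38-fold lower on the HFD32 array, while 1419319_at differed by -0.05.

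In the RefSeq table the Saa genes are neighbours on chromosome 7, in the order Saa3, Saa4, Saa1, Saa2, between Saal1 and Hps5. Saal1 differed by 0.07 and Hps5 by -0.26 on the log2 scale, both named for their position. Within that row, Saa3 was the gene past 2-fold by its brightest probe set.

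Promoters of 8 of the 10 members were in the RefSeq table of sequences (build GRCm38.p6), each running from 250 bases before the annotated start of the gene to 50 bases after it; Hp and Orm1 were not matched. Shown are the 3 members that were at least 2-fold higher (Saa3, Ptx3, Orm2), Lcn2, which was not, and Saa1 and Saa2, which lay under background. Capitals mark matches, on either strand, to the C/EBP motif TTGCNNAA and to the NF-kB consensus of 10 bases, and the sequences run 5′ to 3′ along the strand of the gene.
Saa3, chr7:46715627-46715926, minus strand: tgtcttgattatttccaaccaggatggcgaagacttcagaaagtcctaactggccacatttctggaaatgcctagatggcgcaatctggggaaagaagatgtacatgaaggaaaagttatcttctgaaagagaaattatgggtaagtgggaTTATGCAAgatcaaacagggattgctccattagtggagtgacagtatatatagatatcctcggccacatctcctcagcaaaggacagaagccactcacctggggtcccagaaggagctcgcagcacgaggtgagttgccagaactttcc
Ptx3, chr3:66219637-66219936, plus strand: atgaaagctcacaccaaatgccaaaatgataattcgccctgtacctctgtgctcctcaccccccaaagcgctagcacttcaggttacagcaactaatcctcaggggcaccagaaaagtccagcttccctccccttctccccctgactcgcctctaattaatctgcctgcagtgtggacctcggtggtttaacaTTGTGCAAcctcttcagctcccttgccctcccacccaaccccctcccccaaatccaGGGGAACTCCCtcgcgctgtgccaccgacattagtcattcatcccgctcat
Orm2, chr4:63362199-63362498, plus strand: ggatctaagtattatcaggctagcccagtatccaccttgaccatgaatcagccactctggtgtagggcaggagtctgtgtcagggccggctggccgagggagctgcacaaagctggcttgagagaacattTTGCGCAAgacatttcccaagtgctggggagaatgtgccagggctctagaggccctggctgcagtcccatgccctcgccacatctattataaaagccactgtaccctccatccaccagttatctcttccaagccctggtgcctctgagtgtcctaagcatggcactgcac
Lcn2, chr2:32387690-32387989, minus strand: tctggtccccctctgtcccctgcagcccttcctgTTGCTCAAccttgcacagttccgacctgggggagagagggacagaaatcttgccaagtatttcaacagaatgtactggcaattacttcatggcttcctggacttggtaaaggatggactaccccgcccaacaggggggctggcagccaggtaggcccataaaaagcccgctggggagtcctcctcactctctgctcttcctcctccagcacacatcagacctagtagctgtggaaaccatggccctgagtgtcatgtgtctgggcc
Saa1, chr7:46742931-46743230, minus strand: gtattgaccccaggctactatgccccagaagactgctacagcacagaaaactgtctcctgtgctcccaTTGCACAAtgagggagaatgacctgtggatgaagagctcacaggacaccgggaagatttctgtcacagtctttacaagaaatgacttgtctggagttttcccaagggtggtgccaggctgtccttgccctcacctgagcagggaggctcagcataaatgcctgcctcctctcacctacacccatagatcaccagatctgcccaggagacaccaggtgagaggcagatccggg
Saa2, chr7:46751583-46751882, plus strand: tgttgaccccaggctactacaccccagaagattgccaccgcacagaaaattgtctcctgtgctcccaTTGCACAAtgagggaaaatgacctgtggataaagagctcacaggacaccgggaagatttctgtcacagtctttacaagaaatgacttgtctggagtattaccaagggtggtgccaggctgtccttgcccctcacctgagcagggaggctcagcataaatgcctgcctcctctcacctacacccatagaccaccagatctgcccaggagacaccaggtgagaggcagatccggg

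The C/EBP motif was found in 7 of the 8 member promoters, all but that of Apcs, against 10.8% of 32851 promoters of the same length. It was picked after these windows had been read, so the share describes them and no more. The full palindrome TTGCGCAA occurred in Orm2 alone of the members and in 0.183% of all promoters, while the looser form TTNNGNAA occurred in 7 members and in 40.7% of all promoters. The match begins 99 bases before the start in Saa3, 57 in Ptx3, 120 in Orm2, 216 in Lcn2, 182 in Saa1 and 183 in Saa2. It was thus present in promoters of genes that were higher on the HFD32 array and of genes that lay under background. The NF-kB consensus was found in Ptx3 alone of the 8, as 2 overlapping matches on opposite strands at the start itself, against 4.51% of all promoters. Aligned end to end, the Saa1 and Saa2 promoters were 95.3% identical, and that of Saa3 was 50.1% identical to Saa1. Promoters of unrelated members gave like values, such as 49.1% for Saa3 and Orm2.

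Ptx3, the long pentraxin, is a pattern recognition protein secreted by macrophages, endothelial cells and fibroblasts under inflammatory stimuli. On 1418666_at its log2 signal was 7.24 on the HFD32 array and 5.43 on the CE-2 array, a difference of 1.82, rank 100 from the top among the 11778 genes. Among 2161 genes of similar level Ptx3 had rank 35 from the top, and 218 of these were past 2-fold in either direction. The CE-2 signal of Ptx3 was not far above background (4.92). Its second probe set, 1456903_at, had 4.31 on the HFD32 array and 4.84 on the CE-2 array, both under background. The higher signal on the HFD32 array therefore rests on 1 probe set, and the median over both gives 0.64. Apcs, serum amyloid P, is a short pentraxin and an acute-phase protein of mouse liver. It had 4.58 on the HFD32 array, under background, and 5.23 on the CE-2 array, hence at least 1.21-fold lower on the HFD32 array.

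Haptoglobin, encoded by Hp, binds haemoglobin set free from red cells, and fat cells are a known source of it. Its probe set 1448881_at had a log2 signal of 14.02 on the HFD32 array and 13.70 on the CE-2 array, a difference of 0.33. A difference at least that far from 0 was seen in 36.1% of genes above the floor. Of the 80 genes with a mean level from 13 to 15 on the log2 scale 0 were past 2-fold. The highest signals of any probe set were 14.21 on the HFD32 array and 14.28 on the CE-2 array. Whether signals this bright still follow the amount of RNA was not tested. Among the 41 genes with a mean level within 0.5 of that of Hp, whose quartiles were -0.13 and 0.08, it had rank 5 from the top.

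Lcn2, a lipocalin that binds iron-carrying siderophores and is made by fat cells, macrophages and neutrophils, had 8.66 on the HFD32 array and 8.83 on the CE-2 array. Its difference of -0.18 on 1427747_a_at is smaller than the SD of 0.27 between probe sets of a gene, and 59.9% of genes lay at least as far from 0. Lcn2 thus did not stand higher along with Saa3 and Ptx3.

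Orm1 and Orm2 encode orosomucoids, also called alpha-1-acid glycoproteins, carriers of the lipocalin fold that liver secretes and that adipose tissue expresses too. Orm1 (1451054_at) had a log2 signal of 12.36 on the HFD32 array and 11.82 on the CE-2 array, a difference of 0.54, with rank 35 from the top among 370 genes of similar level. Orm2 (1420438_at) had 6.60 on the HFD32 array and 5.31 on the CE-2 array, a difference of 1.29 and rank 218 among the 11778 genes. Among 2149 genes of similar level Orm2 had rank 51 from the top, and 216 of these were past 2-fold in either direction. Its CE-2 signal was not far above background (4.92). The Orm genes lie together on chromosome 4 in the order Orm1, Orm3, Orm2, and Orm3, named for its position although it is no member, was 1.89-fold lower, with 7.11 on the HFD32 array and 8.03 on the CE-2 array. Neighbouring orosomucoid genes thus stood in opposite directions. Their transcripts are close in sequence, and how far each probe set reads only its own gene was not tested.

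**Figure D2:**
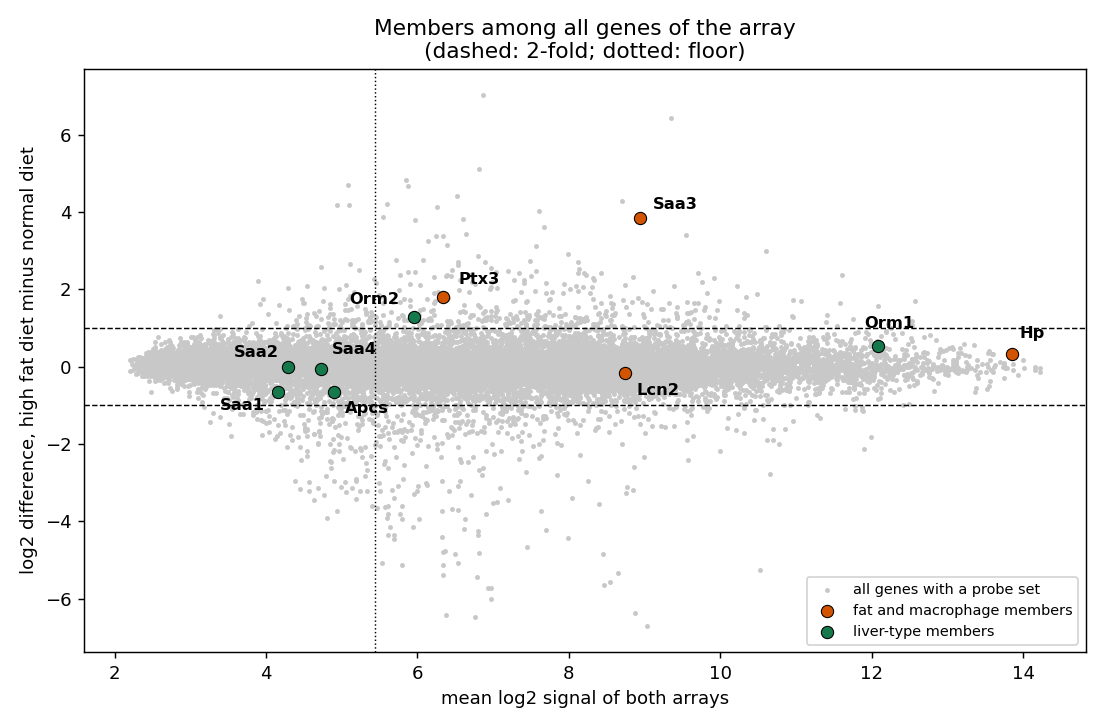
Log2 difference, high fat diet minus normal diet (vertical axis), against the mean log2 signal of both arrays (horizontal axis) for all 18193 genes in grey, with the 4 members made in fat and macrophages in orange and the 6 liver-type members in green. Dashed lines mark 2-fold and the dotted line the floor. Saa3 has rank 3 from the top among the 2090 genes of its level, Hp lies at the bright end where differences are small, and Saa1, Saa2, Saa4 and Apcs lie left of the floor.

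Set against each other, the 4 members made in fat and macrophages had a median log2 difference of 1.07 (0.49 with the median over each gene's probe sets, and 0.33 over the 3 of them above a floor at the 75th percentile) and spread from -0.18 to 3.85. The 6 liver-type members had a median of -0.03 (0.04 with each array centred on its median and 0.03 with signals under background raised to it), from -0.65 to 1.29. All genes above the floor had a median of 0. Over the 2 liver-type members above the floor, Orm1 and Orm2, the median was 0.91, so without the 4 members near or under background the medians of the classes lay close together. With 1 array per diet neither median has a replicate check. In pooled tissue, fewer cells of a type and less RNA per cell cannot be told apart.

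Macrophage markers were higher on the HFD32 array in 16 of 16 cases, against 49.9% of genes above the floor, and 9 passed 2-fold, against 3.28%. Their median difference was 1.04, from 0.04 for the haptoglobin-haemoglobin receptor Cd163 to 2.30 for Cd68, with 1.65 for the surface marker Adgre1. Their summed signal on a linear scale was 38119 on the HFD32 array and 19989.8 on the CE-2 array, and none was under background. Markers of lipid-associated macrophages had a median of 2.06 over 10 genes, with 4.27 for Atp6v0d2, 3.40 for Gpnmb and 2.53 for Trem2. Of the 10, 9 were higher and 1 lower, Lpl at -0.03, and Cd9 was at 0.39. Past 2-fold, 7 were higher, against 3.28% of genes above the floor. The part of macrophages in the Saa3 and Ptx3 differences was not tested.

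Hepatocyte markers stood the other way, lower on the HFD32 array in 13 of 13 cases, against 49.3% of genes above the floor, with a median difference of -5.35 and 12 of them at least 2-fold lower, against 3.29%. Alb had a log2 signal of 7.91 on the HFD32 array and 13.15 on the CE-2 array, and Ttr had 5.68 on the HFD32 array and 12.05 on the CE-2 array. The summed linear signal of the 14 measured hepatocyte markers was 10245 on the HFD32 array and 37463 on the CE-2 array. Cyp2e1 was the brightest of them on both arrays, with 13.23 on the HFD32 array and 13.81 on the CE-2 array, a difference of -0.59. Most of the sum on the HFD32 array is its signal, so the sums understate how far the other markers together were lower. Beside these values, Saa1 and Saa2 were under background on the CE-2 array too, and Orm1 and Orm2 were higher on the HFD32 array. The part of liver transcripts in the values of Hp, Lcn2, Apcs, Orm1 and Orm2 was not tested.

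Neutrophils store Lcn2 and Ptx3 protein in their granules. Of their 11 measured markers 3 were above the floor, with S100a8 at 2.11, S100a9 at least 2.80-fold lower and Prtn3 at -1.71, and Mpo, Cxcr2 and Mmp8 were under background on both arrays. Also below the floor, Csf3r was 1.54-fold higher, while Ngp was 1.32-fold and Elane 1.12-fold lower. Camp and Ltf were at least 1.44-fold and 1.37-fold lower. Ly6g was not analysed here. The summed linear signal of the 11 markers was 1218 on the HFD32 array and 805.5 on the CE-2 array, but without S100a8 it was 331.4 on the HFD32 array and 599.6 on the CE-2 array. The part of neutrophils in the values of Lcn2 and Ptx3 was not tested.

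The cytokines that induce acute-phase genes were mostly dim. Il6 had the same log2 signal of 3.18 on both arrays, under background, and Il1b had 5.15 on the HFD32 array and 5.09 on the CE-2 array, just above it and below the floor. Of 11 measured ligands 4 were above the floor, with a median difference of 0.03. Past 2-fold there were 0 in either direction, against 3.28% of genes above the floor higher and 3.29% lower. Il6, Il1a, Il17a and Ifng were under background on both arrays. Tnf differed by 0.53, Osm by 0.06, Clcf1 by -0.01 and Ctf1 by -0.66.

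Among 10 receptors of these cytokines 5 were higher and 5 lower, against 49.9% and 49.3% of genes above the floor. Past 2-fold upward there were 0, against 3.28%, and downward 1, against 3.29%. Il1rn, the secreted antagonist of the interleukin 1 receptor, had a log2 signal of 7.85 on the HFD32 array and 5.22 on the CE-2 array, 6.16-fold higher. It stood on the same fixed list, and with it 1 of 11 genes was past 2-fold upward and 1 downward. Tnfrsf1b differed by 0.77 and Il6ra by 0.41, while Il1rap, the accessory chain of the interleukin 1 receptor, was 2.10-fold lower. Of the 13 measured transcription factors and feedback genes above the floor 5 were higher and 8 lower, against 49.9% and 49.3% of all genes above it. Their median was -0.10 and 0 were past 2-fold, against 3.28% higher and 3.29% lower. Cebpb, an activator of acute-phase promoters, differed by 0.72 and its relative Cebpd by -0.10, Stat3 by 0.02 and its feedback inhibitor Socs3 by -0.02. Nfkbiz, a nuclear partner of NF-kB needed for Lcn2 induction, differed by -0.68, Hnf4a, a factor of liver and epithelia, by -0.98 and the glucocorticoid receptor Nr3c1 by -0.82. Il1b, Il6, Cebpd, Stat3 and Socs3 were named outside the rule for named genes.

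Among receptors and binding partners of the members, 10 of 16 above the floor were higher and 6 lower, with a median of 0.18, against 49.9% and 49.3% of all genes above it. Past 2-fold, 3 were higher and 2 lower, against 3.28% and 3.29%. The 3 that were higher were the Fc receptors Fcgr4 (1.90), Fcgr1 (1.44) and Fcgr3 (1.19), a receptor family that also binds pentraxins and is typical of macrophages. Mmp9, the protease that Lcn2 binds, was 3.22-fold lower, with 6.03 on the HFD32 array and 7.72 on the CE-2 array, and Lrp2, an endocytic receptor of Lcn2, differed by -1.62. Named outside the rule, the serum amyloid A receptors Tlr2 and Tlr4 differed by 0.87 and 0.21, and Fpr2 was under background on both arrays. Cd163 differed by 0.04.

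**Figure D3:**
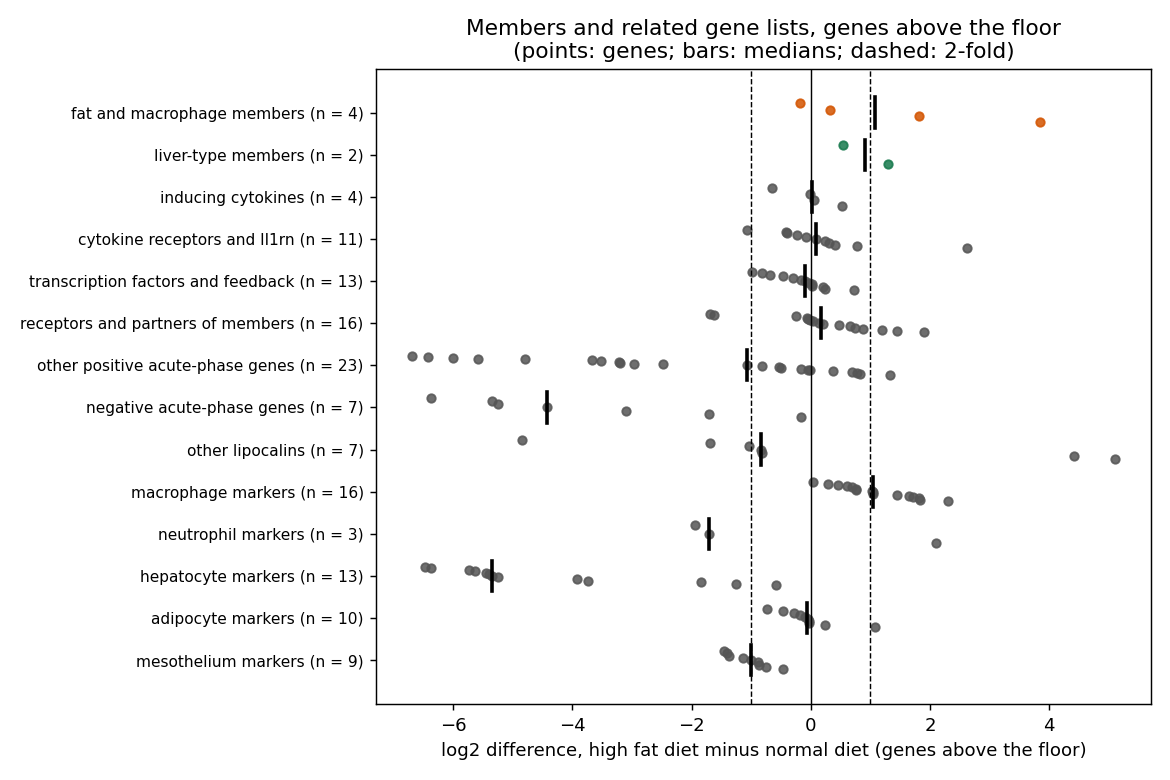
Log2 differences, high fat diet minus normal diet (horizontal axis), of the genes above the floor in the member classes and 12 other gene lists (rows), 1 point per gene with a bar at the list median. Dashed lines mark 2-fold. The macrophage markers all lie right of 0 and the hepatocyte markers all left of it, and the other positive acute-phase genes stretch from -6.70 to 1.33.

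Acute-phase genes outside the member list split widely. Of 23 positive acute-phase genes above the floor 5 were higher and 18 lower, against 49.9% and 49.3% of all genes above it. Past 2-fold, 1 was higher and 12 were lower, against 3.28% and 3.29%, and the median was -1.07. Lbp, which hands bacterial lipopolysaccharide to CD14, was the 1 past 2-fold upward, with a log2 signal of 12.08 on the HFD32 array and 10.75 on the CE-2 array, 2.51-fold higher. The other 4 that were higher were Cfb (0.82), Lrg1 (0.78), Serpina3n (0.69) and Mt2 (0.36), named to complete the count. At the other end stood the fibrinogen chains Fga and Fgg, at least 24.9-fold and 32.3-fold lower, and the alpha-1-antitrypsin Serpina1c, 103.8-fold lower. Crp, a short pentraxin like Apcs, lay below the floor and was at least 2.82-fold lower, with 4.10 on the HFD32 array and 6.44 on the CE-2 array. Negative acute-phase genes are those that liver makes less of during inflammation. Above the floor they were lower in 7 of 7 cases, against 49.3% of all genes above it. Their differences ran from -6.37 for Ttr to -0.16 for Rbp4, which fat cells also express. Alb, Ttr and Apoa2 stand in both the negative acute-phase list and the hepatocyte list, so these are not separate evidence. The part of liver transcripts in the values of the positive acute-phase genes was not tested either.

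By size of difference, the genes nearest to each member were sought among 167 genes of the other lists above the floor. For Saa3 (3.85) these were the epididymis genes Gpx5 (4.03) and Adam7 (4.12) and the macrophage proton pump subunit Atp6v0d2 (4.27). Those nearest to Ptx3 (1.82) were the macrophage genes Mpeg1 (1.81) and Ms4a7 (1.83) and the Fc receptor Fcgr4 (1.90). For Hp (0.33) they were Il1r2 (0.30), Mt2 (0.36) and Cd14 (0.29), and for Lcn2 (-0.18) they were Nfkb2 (-0.17), Lipe (-0.19) and Rbp4 (-0.16). Likeness here is the gap between the differences of 1 pair of arrays. Only genes of the chosen lists, macrophage markers among them, could be found. The Ptx3 value rests on 1 probe set, and at its median over probe sets (0.64) other genes would be nearest.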

How the data were processed

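RNA of adipose tissue, pooled from 3 mice per diet, was measured on 1 array per diet. The deposited values are log2 signals for 45101 probe sets, which the authors made with RMA, per the submitters' processing notes; the sources used here give neither its version nor a genome build. That the scale is log2 follows from their range, from 2.06 to 14.21 on the HFD32 array and from 2.04 to 14.28 on the CE-2 array. The sorted columns lay within 0.14 of each other throughout, so differences in total RNA are removed. GEO's platform annotation gave the gene names, using those with 1 symbol and leaving out 64 controls; transcript accessions, gene order and promoters came from RefSeq tables of GRCm38.p6.

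The brightest probe set represented a gene. Where the dimmer array lay under background, the ratio was computed against background and written "at least". Precision is limited by the number of arrays, and the probe set SD (5131 genes) covers neither animals nor hybridisation. Named genes were all members, the 3 farthest with and the 1 farthest against each list's median, fixed defining markers and the 3 nearest to each member made in fat and macrophages. The members and lists were chosen with earlier results of these data known. The 2-fold calls were tested on simulated arrays in which genes well above the floor were shifted by a known amount. Dim genes, ratios against background and the motif search were not tested in this way. Python 3.11.15, pandas 2.3.3 and Biopython 1.88 were used. Alternatives were the median over probe sets, no probe sets that can match several transcripts, centring, signals raised to background, no floor and a floor at the 75th percentile.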

Additional observations from a re-analysis of the deposited data

How the results depend on the processing

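Of 51 recomputed member differences 46 stayed within the probe set SD of 0.27 and 5 moved by more. Most of the 51 could not move that far, so the 46 is no measure of stability. Changing the floor leaves the value of a member as it is, and centring shifts every difference by 0.07. The median over probe sets changes nothing for the 7 members with 1 probe set. With the median over probe sets Ptx3 had 0.64, Saa4 -0.83 and the members made in fat and macrophages a median of 0.49. Leaving out probe sets that can match several transcripts, Saa1 had -0.20, and Saa3, Lcn2 and Saa2 had no value, so their results rest on such probe sets alone. With signals under background raised to it Saa1 had 0.029 and Apcs -0.28. With the floor at the 75th percentile the medians were 0.33 over 3 members made in fat and macrophages and 0.54 for Orm1 alone, and over all genes, fewer being tested, 190 were higher and 132 lower by 2-fold or more. Over liver-type members above the floor, a setting added after the data were seen, the median was 0.91. No paired analysis was possible because each diet had 1 array. Saa1, Saa2, Saa4 and Apcs lie too close to background for their differences to be read.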

Other observations

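Other members of the lipocalin family, to which Lcn2, Orm1 and Orm2 belong, spread further than they did. Of 7 above the floor 2 were higher and 5 lower on the HFD32 array, against 49.9% and 49.3% of all genes above it. Their median difference was -0.83. Lcn8 and Lcn9, which the epididymis secretes, were at least 21.8-fold and 14.03-fold higher. Ambp, a plasma protein precursor made in liver, was at least 15.6-fold lower, C8g, a chain of complement component 8, differed by -1.69 and the prostaglandin D synthase Ptgds by -1.03. The 6 epididymis markers above the floor had a median of 4.27, with Spink2 at -0.10, while below it Lcn5 was under background on both arrays and Defb2 was at least 1.15-fold lower. Of the pentraxins beside Ptx3 and Apcs, Nptx1, Nptx2 and Ptx4 were under background on both arrays and Crp on the HFD32 array.

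Mesothelium markers, from a tissue that lines visceral fat, were lower for 9 of 9 genes, against 49.3% of genes above the floor, with a median difference of -1.0003, led by Krt8 (-1.46), while Msln had -0.47. Of 9 fibroblast and preadipocyte markers 3 were higher and 6 lower, against 49.9% and 49.3% of genes above the floor. Their median difference was -0.28, with Cd34 at -0.56 and Lum at 0.65. Endothelial markers had a median of -0.66 over 6 genes, with Emcn at -0.76. The adipocyte markers had a median of -0.07 over 10 genes (0.0047 with each array centred on its median), from -0.74 for Slc2a4 to 1.08 for Lep. Pancreas and skeletal muscle markers had medians of -3.21 and -2.002.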
